A study of Mus musculus with 5 samples.

Results

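The genes described here are 10 transcripts of the hormone and steroid programme of Leydig cells, the interstitial cells of the testis that make androgens: Star, Cyp11a1, Hsd3b1, Hsd3b6, Cyp17a1, Hsd17b3, Srd5a1, Akr1c14, Lhcgr and Insl3. They were chosen by symbol, and each matched 1 row of the 25631 rows of the expression table through its RefSeq transcript. The table covered 17277 distinct symbols. Values are intensities of single-colour arrays, in arbitrary units on a linear scale, and log2 of them where so stated. The arrays measured whole mouse testes at postnatal day 9.

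The study asked how gene expression in testes with a conditional deletion of Dmrt1, which encodes a DM-domain transcription factor of Sertoli and germ cells, differed from that in controls. The groups were 1 array of Cre-positive Dmrt1 knockout testes with DHH-cre, 3 arrays of Cre-positive Dmrt1 knockout testes with NGN-cre, and 1 Cre-negative control array that carries the NGN-cre label. All samples were male and of the same age, no control with the DHH-cre label is among the arrays analysed here, and the labels give the Cre drivers by these names alone. Mouse Sertoli cells transcribe Dhh and mouse spermatogonia Neurog3, but the labels do not tie the driver names to these genes. They also leave unsaid whether different animals were used for each array. The p-values therefore rest on the spread between arrays, which may be technical.

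In Leydig cells, luteinising hormone acts through its receptor and cyclic AMP to bring cholesterol into mitochondria, where side-chain cleavage starts the pathway that ends in testosterone. In the mouse, a fetal population of Leydig cells declines around birth and an adult population arises during juvenile life, so a testis of this age can hold both. Fetal Leydig cells of the mouse lack Hsd17b3, and the last step of testosterone synthesis is then carried out in Sertoli cells. Adult Leydig cells express both Hsd17b3 and Hsd3b6.

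On the 1 DHH-cre knockout array Hsd17b3, which makes testosterone, was 9.67-fold lower than in the NGN-cre knockouts. Hsd3b6, an isoform of adult Leydig cells, was 2.93-fold higher. Both passed the test, beside 1.00% of all rows, but neither did with an offset of 64 added before log2. The genes of the preceding steps, Star, Cyp11a1, Hsd3b1 and Cyp17a1, stood at 92.8% to 155% of the control on the DHH-cre array. In the NGN-cre knockouts 0 of 10 members passed the test against the control, beside 0.00% of all rows.

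The 5′ flanks of the genes whose values moved apart are shown to set their sequences beside those values. Promoter sequences were taken from RefSeq on GRCm38.p6, in which 8 of 10 members matched, all but Star and Cyp17a1, with 9 promoters because Cyp11a1 has more than 1 start. The 250 bases before the start are given 5′ to 3′ on the strand of the gene. Capitals mark AGGTCA, the core letters bound by nuclear receptors such as NR5A1, the steroidogenic factor of gonads and adrenal glands. Hsd17b3 (chr13:64089202-64089451, minus strand) and Hsd3b6 (chr3:98814444-98814693, minus strand) are the members that passed the test between the deletions. Hsd3b1 (chr3:98859795-98860044, minus strand) is the paralogue of Hsd3b6 on the same chromosome, and Cyp11a1 (chr9:58014702-58014951, plus strand) is a member with a match.
Hsd17b3: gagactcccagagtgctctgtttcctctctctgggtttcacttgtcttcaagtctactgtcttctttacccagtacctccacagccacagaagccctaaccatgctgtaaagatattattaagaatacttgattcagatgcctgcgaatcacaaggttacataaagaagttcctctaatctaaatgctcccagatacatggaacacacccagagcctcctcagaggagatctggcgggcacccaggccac
Hsd3b6: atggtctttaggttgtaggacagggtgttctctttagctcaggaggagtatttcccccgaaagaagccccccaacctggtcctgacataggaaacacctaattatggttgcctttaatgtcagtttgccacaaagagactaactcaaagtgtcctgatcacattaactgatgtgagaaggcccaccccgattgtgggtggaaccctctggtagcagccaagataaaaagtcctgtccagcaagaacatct
Hsd3b1: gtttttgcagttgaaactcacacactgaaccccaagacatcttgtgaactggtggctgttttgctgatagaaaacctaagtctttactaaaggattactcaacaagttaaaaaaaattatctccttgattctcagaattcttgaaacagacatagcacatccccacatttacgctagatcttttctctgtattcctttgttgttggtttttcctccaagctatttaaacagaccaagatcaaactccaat
Cyp11a1: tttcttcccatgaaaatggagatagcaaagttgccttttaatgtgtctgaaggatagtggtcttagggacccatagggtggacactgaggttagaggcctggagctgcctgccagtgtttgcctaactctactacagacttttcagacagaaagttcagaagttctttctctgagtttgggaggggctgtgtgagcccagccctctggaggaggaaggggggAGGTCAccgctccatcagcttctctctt
On both strands, AGGTCA was found in 2 of the 9 promoters, in Cyp11a1 from base 28 to base 23 before the start and in Lhcgr from base 122 to base 117 before it. Of 32851 promoters of the same length, 14.0% hold it. The longer NR5A1 letters CAAGGNCA, which overlap AGGTCA where N is T, were in none of the 9 and in 5.53% of all promoters. The letters ACATTGT, a core of sites bound by DMRT1, were in none of the 9 and in 2.56% of all promoters. No match says only that these letters are not in this window. The flanks of Hsd3b6 and Hsd3b1 aligned with 49.3% identical columns, inside the range of 42.4% to 52.8% over the 36 pairs of the 9 promoters.

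Dmrt1 itself had an intensity of 6416 in the DHH-cre knockout and of 4884, 5644 and 5509 in the NGN-cre knockouts, against 11847 in the control. The sources used here do not say whether its probes lie in the deleted part. Median intensities were 721 to 730 on the 5 arrays. The DHH-cre array stood apart, with Pearson correlations of log2 values of at most 0.981 with any other array, and with 2752 rows at least 2-fold from the control, against 662 to 1293 rows on the NGN-cre arrays. Its array number in the labels is also far from those of the other 4, and a batch effect of the arrays and an effect of DHH-cre cannot be told apart. In whole testes, fewer cells of a type and less RNA per cell cannot be told apart either.

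Hsd17b3, the dehydrogenase that reduces androstenedione to testosterone, showed the largest difference among the members. Its intensity was 2305 in the DHH-cre knockout and 17773, 20009 and 31106 in the NGN-cre knockouts, against 22500 in the control. The DHH-cre value lay below all others by a wide margin, and the control lay within the range of the NGN-cre values. At 10.2% of the control, the DHH-cre level lay -3.29 from it on the log2 scale. It was 9.67-fold lower than in the NGN-cre knockouts, a log2 difference of -3.27 with an SE of 0.34 (adjusted p = 0.0209 over all rows; limma with Benjamini-Hochberg adjustment). The NGN-cre knockouts averaged 22962 ± 7141 (SD, n = 3), 0.01 below the control on the log2 scale. With an offset of 64 added before log2 the difference between the deletions was -3.24 and did not pass (limma, Benjamini-Hochberg adjusted p = 0.059).

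Hsd3b6, the hydroxysteroid dehydrogenase isoform of adult Leydig cells in the mouse, stood on the other side. It had an intensity of 4046 in the DHH-cre knockout and of 1570, 1361 and 1237 in the NGN-cre knockouts, against 1042 in the control. The DHH-cre value was the highest, the control the lowest, and no group overlapped another. The DHH-cre level was 3.88-fold that of the control (log2 1.96) and 2.93-fold that of the NGN-cre knockouts (log2 1.55, SE 0.24; limma, Benjamini-Hochberg adjusted p = 0.0452). This call was lost without NGN-cre replicate 1 (adjusted p = 0.111), without replicate 2 (adjusted p = 0.0637) and with the offset of 64 (adjusted p = 0.0648), while the log2 difference stayed between 1.47 and 1.64 in all settings. The NGN-cre knockouts differed from the control by 0.41 (SE 0.24; limma, Benjamini-Hochberg adjusted p = 0.754).

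Hsd3b1, an isoform of Leydig cells and of the adrenal gland that is not limited to adult Leydig cells, catalyses the same step, the conversion of pregnenolone to progesterone. Its intensity was 28555 in the DHH-cre knockout and 21175, 22085 and 25271 in the NGN-cre knockouts, against 18428 in the control. The order of the groups was that of Hsd3b6, with the DHH-cre array highest and the control lowest, but the steps were smaller. The DHH-cre knockout lay 0.63 above the control on the log2 scale and 0.33 above the NGN-cre knockouts (SE 0.22; limma, Benjamini-Hochberg adjusted p = 0.497). The 95% interval of the difference between the deletions ran from -0.21 to 0.86 for Hsd3b1 and from 0.99 to 2.11 for Hsd3b6. The difference between these isoforms was not tested. These isoforms are similar in sequence, and whether the probes tell them apart was not tested.

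**Figure D1:**
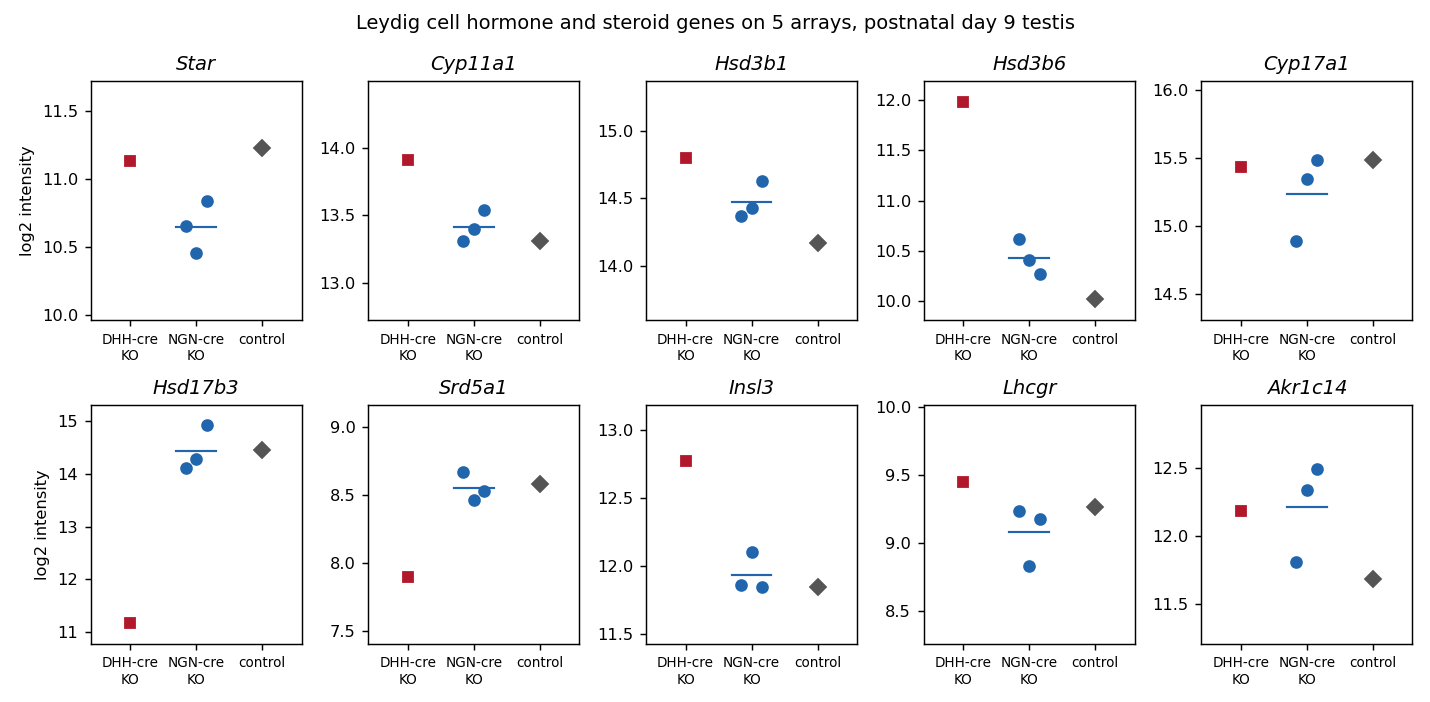
Log2 intensity of each of the 10 genes, 1 panel per gene with its own axis of at least 1.6 log2 units, with DHH-cre knockout (square, 1 array), NGN-cre knockout (circles, 3 arrays, line at their mean) and control (diamond, 1 array). Hsd17b3 is at 11.17 on the DHH-cre array and between 14.12 and 14.92 on all others, and Hsd3b6 is at 11.98 against 10.02 to 10.62.

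Of the genes for the entry and cleavage of cholesterol, Star encodes the protein that delivers cholesterol to the inner mitochondrial membrane. Its intensity was 2236 in the DHH-cre knockout and 1612, 1397 and 1838 in the NGN-cre knockouts, against 2410 in the control. All 3 NGN-cre values lay below both other arrays, which were close to each other, with the DHH-cre level at 92.8% of the control. The NGN-cre knockouts differed from the control by -0.59 (SE 0.24; limma, unadjusted p = 0.0478, Benjamini-Hochberg adjusted p = 0.632), the only member with an unadjusted p under 0.05 in that comparison, where 7.86% of all rows had one. Between the deletions the log2 difference of Star was 0.48 (SE 0.24; limma, Benjamini-Hochberg adjusted p = 0.356).

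Cyp11a1 encodes the side-chain cleavage enzyme that turns cholesterol into pregnenolone. Intensities of Cyp11a1 were 15350 in the DHH-cre knockout and 10169, 10805 and 11902 in the NGN-cre knockouts, against 10166 in the control. The DHH-cre array was the highest, and NGN-cre replicate 1 and the control were nearly equal. The DHH-cre level was 1.51-fold the control. Its log2 difference from the NGN-cre knockouts was 0.49, with a 95% interval of -0.04 to 1.01 (limma, Benjamini-Hochberg adjusted p = 0.301).

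Cyp17a1 encodes the hydroxylase and lyase that leads from progestins to androgens, the substrate of Hsd17b3. The array values were 44203 in the DHH-cre knockout and 30267, 41544 and 45608 in the NGN-cre knockouts, against 45782 in the control. The DHH-cre value lay inside the range of the other arrays, and only NGN-cre replicate 1 was clearly lower. The DHH-cre level was 96.6% of the control. Between the deletions the log2 difference was 0.20, with a 95% interval of -0.48 to 0.88 (limma, Benjamini-Hochberg adjusted p = 0.764).

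**Figure D2:**
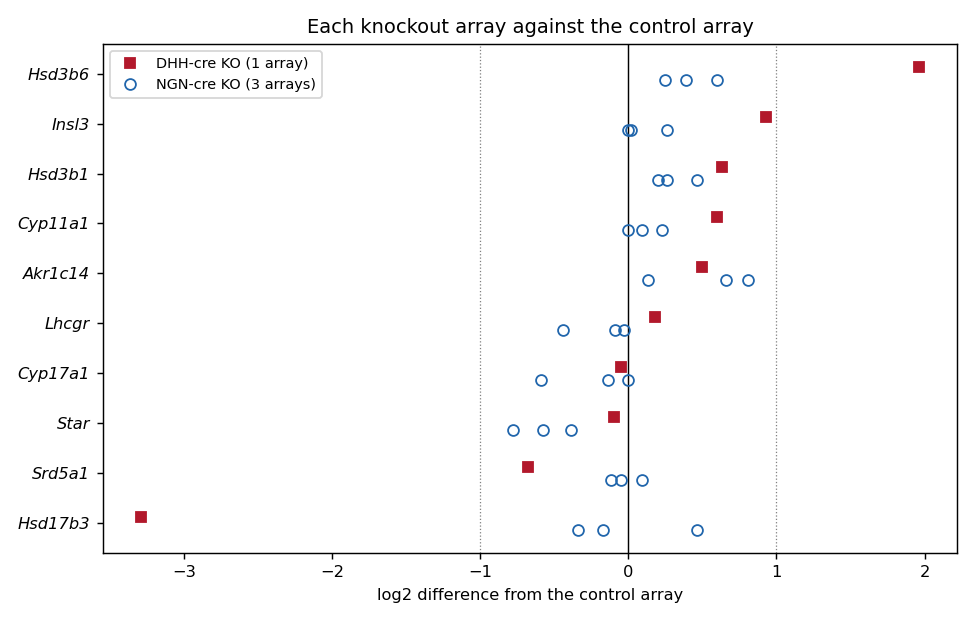
Log2 difference of each knockout array from the control array for the 10 genes, ordered by the DHH-cre knockout (squares, 1 array) with the NGN-cre knockout arrays beside it (open circles). Dotted lines mark 2-fold, which on the DHH-cre array Hsd3b6 (1.96) and Hsd17b3 (-3.29) lie beyond, while no NGN-cre array lies beyond it.

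Of the genes that act on testosterone and its products, Srd5a1 encodes the reductase that converts testosterone to dihydrotestosterone, and its intensity was 239 in the DHH-cre knockout and 407, 351 and 368 in the NGN-cre knockouts, against 383 in the control. The DHH-cre value was below all others, at 62.4% of the control. Its log2 difference from the NGN-cre knockouts was -0.65 (SE 0.22; limma, unadjusted p = 0.0223, Benjamini-Hochberg adjusted p = 0.189).

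Akr1c14 encodes an aldo-keto reductase that converts dihydrotestosterone to androstanediol, the androgen that prevails in juvenile rodent testes. Akr1c14 was measured at 4650 in the DHH-cre knockout and 3581, 5187 and 5773 in the NGN-cre knockouts, against 3291 in the control. The control was the lowest of the 5 arrays, and the DHH-cre value fell among the NGN-cre values. The NGN-cre knockouts differed from the control by 0.53 (SE 0.31; limma, Benjamini-Hochberg adjusted p = 0.758), and the deletions differed by -0.03, with a 95% interval of -0.77 to 0.70 (limma, Benjamini-Hochberg adjusted p = 0.972).

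Of the hormone and receptor genes, Insl3 encodes the insulin-like peptide of Leydig cells that guides testis descent. Its intensity was 6991 in the DHH-cre knockout and 3719, 4383 and 3675 in the NGN-cre knockouts, against 3667 in the control. The DHH-cre value stood above the other 4, of which NGN-cre replicates 1 and 3 and the control were nearly equal. The DHH-cre level was 1.91-fold the control, and 0.84 above the NGN-cre knockouts on the log2 scale (95% interval 0.30 to 1.38; limma, unadjusted p = 0.00826, Benjamini-Hochberg adjusted p = 0.127). On the log2 scale Insl3 was 0.93 above the control, short of 2-fold.

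Lhcgr encodes the receptor for luteinising hormone. Lhcgr was measured at 700 in the DHH-cre knockout and 603, 456 and 580 in the NGN-cre knockouts, against 618 in the control. The DHH-cre value was above the control and all NGN-cre values below it, by amounts that were small for NGN-cre replicate 1. The deletions differed by 0.37 on the log2 scale, with a 95% interval of -0.23 to 0.96 (limma, Benjamini-Hochberg adjusted p = 0.49).

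**Figure D3:**
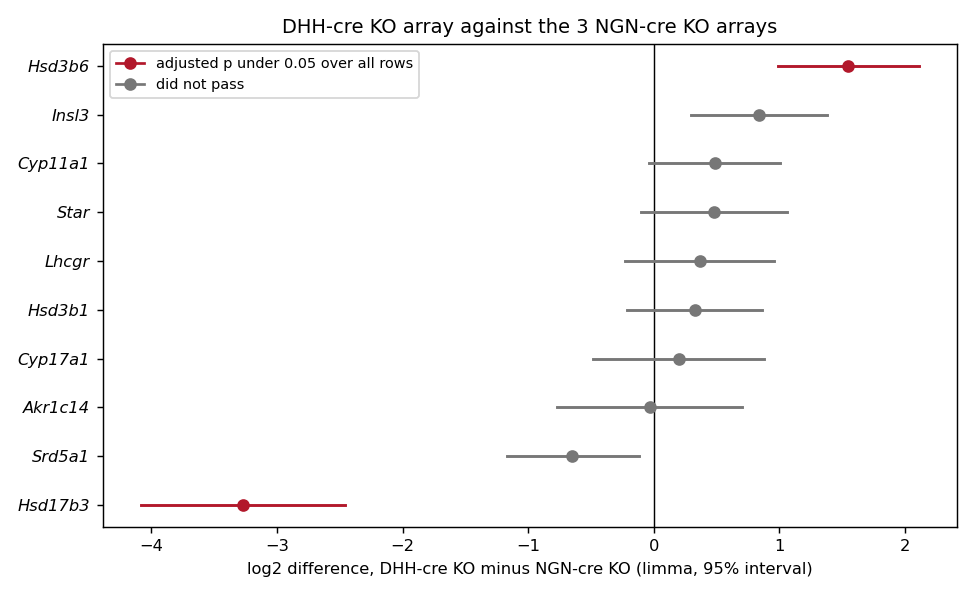
DHH-cre knockout array minus the 3 NGN-cre knockout arrays on the log2 scale for the 10 genes, with 95% intervals from limma, in which the lone DHH-cre array is assumed to vary like the others. Hsd3b6 (1.55) and Hsd17b3 (-3.27), in red, passed an adjusted p of 0.05 over all rows, and Insl3 (0.84) and Srd5a1 (-0.65) have intervals that leave out 0 without passing.

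Over the 10 members, the comparison of the DHH-cre with the NGN-cre knockouts gave 2 calls, Hsd3b6 higher and Hsd17b3 lower, in a comparison in which 1.00% of all rows were called, 0.273% higher and 0.730% lower. An unadjusted p under 0.05 was found for 4 of 10 members and for 18.3% of all rows. The median log2 difference of the members was 0.35, beside 0.006 over all rows, and 7 of 10 lay above 0, beside 50.6% of all rows. An exact permutation of 3 arrays against 1 has 0.25 as its smallest p.

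Only 1 array stood on each side when the DHH-cre knockout was set against the control, so there was no replicate check and no test. A gene was counted when it was at least 2-fold apart and by more than its own span over the 3 NGN-cre arrays, which is called the size rule here. By this rule 2 of 10 members were counted, where 10.4% of all rows were. They were Hsd3b6, higher, beside 5.55% of all rows, and Hsd17b3, lower, beside 4.81%. The median log2 difference was 0.34, beside -0.021 over all rows, and 6 of 10 lay above 0, beside 48.3%. The DHH-cre value lay outside the range of all other arrays for 7 of 10 members and for 58.2% of all rows. Above all others were 5 members, beside 29.0% of all rows, and below all others 2 members, beside 29.1%. The comparisons share the DHH-cre array, and those against the control share the control array.

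The NGN-cre knockouts against the control gave 0 of 10 members past the test, with 0.00% of all rows called, and 0 of 10 by the size rule, with 1.88% of all rows counted, 1.33% higher and 0.546% lower. The median log2 difference was 0.04, beside -0.019 over all rows, with 5 members above 0 and 5 below, beside 47.4% of all rows above. In 9 of 10 members the NGN-cre mean lay within 1.5-fold of the control, Star being the exception. The control lay outside the NGN-cre range for 8 of 10 members and for 54.5% of all rows. It was above all 3 for 3 members, beside 28.8% of all rows, and below all 3 for 5 members, beside 25.7%. Intervals were wide: for Hsd17b3 the 95% interval ran from -0.82 to 0.79, and for Cyp17a1 from -0.93 to 0.43.

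Genes with profiles nearest to those of the 2 members that spanned more than 1 log2 unit were sought over the 5 arrays, by the Euclidean distance of mean-centred log2 values. Nearest to Hsd17b3 was Tnnt2, the cardiac troponin T gene, at a distance of 0.61, with 2347 in the DHH-cre knockout and 19816, 27676 and 24549 in the NGN-cre knockouts, against 27182 in the control. Next were Defb42, a beta-defensin gene, at 0.75 and the zinc finger gene Zfp456 at 0.84. Nearest to Hsd3b6 were Catsper2, a sperm calcium channel subunit gene, at 0.22, and Rtp4 and Unc13d, both at 0.24. With 5 arrays such likeness rests mainly on the DHH-cre value.

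Markers of Sertoli cells were set beside Hsd17b3. Of 15 genes on the list 14 were measured. Their summed intensity was 162366 in the DHH-cre knockout and 186997 to 215499 in the NGN-cre knockouts, against 246968 in the control. Sums here are of linear intensities, so the brightest genes weigh most in them. On the DHH-cre array 12 of 14 lay below the control and 2 above it, beside 48.3% of all rows above, with a median of -0.50. The size rule counted 4 of 14, all lower, beside 4.81% of all rows. In the NGN-cre knockouts 14 of 14 lay below the control, with a median of -0.33, beside 47.4% of all rows above it. Hsd17b3 was at -0.01 in that comparison. Cst9, a cystatin gene of Sertoli cells, had an intensity of 1675 in the DHH-cre knockout and of 15872, 13472 and 12645 in the NGN-cre knockouts, against 19740 in the control. It passed between the deletions (log2 -3.06; limma, Benjamini-Hochberg adjusted p = 0.0153), as did Fshr, the receptor for follicle-stimulating hormone (log2 -1.55; limma, Benjamini-Hochberg adjusted p = 0.0369). These were 2 of the 14 genes, both lower, beside 0.730% of all rows called lower. Of the transcription factors on the list, the log2 difference from the control on the DHH-cre array was -1.08 for Sox8, counted by the size rule, -0.74 for Gata1, -0.26 for Sox9 and 0.12 for Wt1. Among secreted products it was -1.49 for Defb19, also counted, and -0.98 for Clu. For Amh it was -0.38, for Inhbb -0.32, for Inha -0.07 and for Dhh 0.25. The part of these markers in the Hsd17b3 value was not tested.

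Cortical cells of the adrenal gland share Star, Cyp11a1 and Hsd3b1 with Leydig cells. The 6 genes of the adrenal list, of which Cyp11b1, Cyp11b2 and Cyp21a1 are also on the list of other steroid enzymes, summed to 3432 in the DHH-cre knockout and to 2023 to 3054 in the NGN-cre knockouts, against 2486 in the control. On the DHH-cre array 3 of these 6 genes lay above the control and 3 below it, with a median log2 difference of -0.14. Akr1b7, the brightest of them, had 2179 in the DHH-cre knockout and 1095, 2145 and 2032 in the NGN-cre knockouts, against 1294 in the control. Its log2 difference from the control on the DHH-cre array was 0.75, that of Mrap 0.42 and that of Mc2r -0.68. Cyp11b2, the aldosterone synthase gene, had 32.2 in the DHH-cre knockout and 31.1 to 43.5 in the NGN-cre knockouts. The control had 40.8, beside a median of 37.5 for olfactory receptor rows. Cyp11b1 had 52.9 in the DHH-cre knockout and 35.9 to 79.6 in the NGN-cre knockouts, against 89.9 in the control. Cyp21a1, the steroid hydroxylase of the adrenal cortex, was brighter, with 668 in the DHH-cre knockout and 440 to 479 in the NGN-cre knockouts, against 635 in the control.

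Macrophages lie against Leydig cells, and 9 of 10 of their markers were measured, with sums of 15228 in the DHH-cre knockout and 15119 to 19588 in the NGN-cre knockouts, against 12159 in the control. Germ cell markers, 10 of 10 measured, summed to 208763 in the DHH-cre knockout and to 178223 to 196505 in the NGN-cre knockouts, against 156264 in the control. The 6 peritubular myoid genes summed to 40663 in the DHH-cre knockout and to 46185 to 49431 in the NGN-cre knockouts, against 45488 in the control. In the macrophage and germ cell lists every knockout sum lay above the control. The germ cell list was split, however: against the control on the DHH-cre array the size rule counted 4 genes higher and 3 lower, beside 5.55% and 4.81% of all rows. The germ cell genes Tex101 (1.66), Rnf17 (1.36), Sycp3 (1.17) and Stra8 (1.01) were the higher ones, and Sall4, Gfra1 and Zbtb16, genes of undifferentiated spermatogonia, were the lower ones, at -1.72, -1.43 and -1.03. For 6 endothelial genes the sums were 20445 in the DHH-cre knockout and 27458 to 30297 in the NGN-cre knockouts, against 24596 in the control. For 6 of 8 erythroid genes they were 11689 in the DHH-cre knockout and 22373 to 29303 in the NGN-cre knockouts, against 29386 in the control, with Slc4a1, the red cell anion exchanger, past the test between the deletions (log2 -1.60; limma, Benjamini-Hochberg adjusted p = 0.0442). The erythroid sums came mostly from 1 bright globin gene. On the DHH-cre array 6 of 6 erythroid genes lay below the control, with a median of -1.32, beside 48.3% of all rows above it. The size rule counted 4 of the 6, all lower, beside 4.81% of all rows. The summed intensity of the 10 steroidogenesis genes was 109274 in the DHH-cre knockout and 90875 to 127357 in the NGN-cre knockouts, against 108287 in the control. Opposite changes offset each other in the DHH-cre sum, where 6 of 10 genes lay above the control and 4 below. Hsd17b3 had 2305 against 22500 in the control, and Hsd3b1 28555 against 18428. The part of other cell types in the members' values was not tested.

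**Figure D4:**
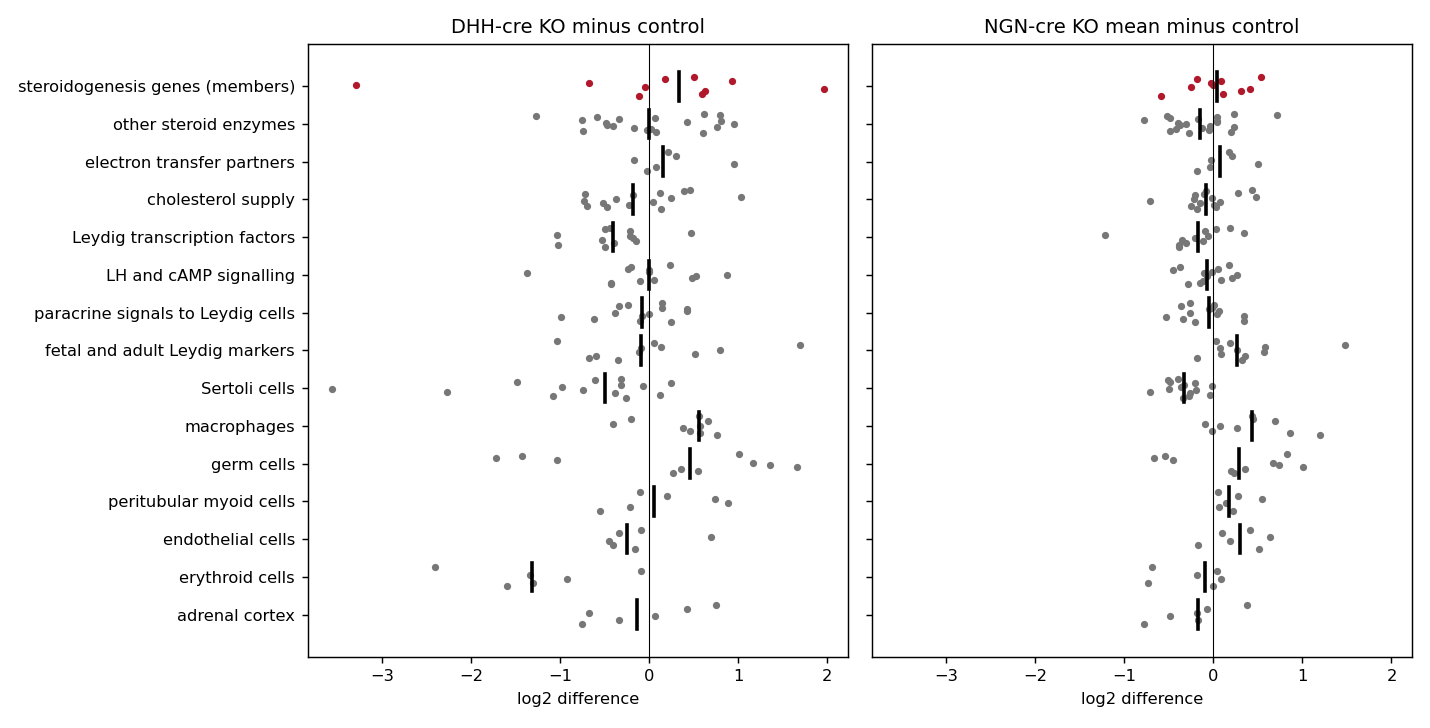
Log2 differences from the control of the DHH-cre knockout array (left) and of the mean of the 3 NGN-cre knockout arrays (right) for every measured gene of the 15 lists (points), with the list median as a black bar. The steroidogenesis genes, in red, spread from -3.29 to 1.96 on the left and from -0.59 to 0.53 on the right.

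Of 20 other steroid enzymes, all measured, 0 passed limma's test between the deletions, beside 1.00% of all rows. In the NGN-cre knockouts against the control 0 passed, beside 0.00%. At an unadjusted p under 0.05 were 4 between the deletions, beside 18.3% of all rows, and 2 in the NGN-cre knockouts, beside 7.86%. The median of the 20 was 0.00 for the DHH-cre knockout and -0.15 for the NGN-cre knockouts against the control. Akr1c6, an aldo-keto reductase gene, differed most between the deletions (log2 1.26; limma, Benjamini-Hochberg adjusted p = 0.0525), with 114.5 in the DHH-cre knockout and 47.5 to 48.0 in the NGN-cre knockouts, against 59.2 in the control. The size rule against the control counted 1 of the 20 on the DHH-cre array, beside 10.4% of all rows. It was Hsd11b2, which inactivates glucocorticoids, at -1.27.

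Of 6 electron transfer genes 0 passed either limma test. Over all rows 1.00% passed between the deletions and 0.00% in the NGN-cre knockouts against the control. At an unadjusted p under 0.05 were 0 of the 6 genes, beside 18.3% and 7.86% of all rows in these comparisons. Of 15 cholesterol supply genes 0 passed either limma test. At an unadjusted p under 0.05 was 1 of them in the NGN-cre knockouts against the control and 0 between the deletions. The 6 electron transfer genes had a median log2 difference from the control of 0.15 with DHH-cre and of 0.07 with NGN-cre. Por, the reductase that feeds electrons to Cyp17a1, had 15384 in the DHH-cre knockout and 13216, 11635 and 9390 in the NGN-cre knockouts, against 7973 in the control, the lowest of the 5. Its log2 difference from the control was 0.95 and 0.50 in these knockouts. Of 15 cholesterol supply genes 1 was counted by the size rule in the DHH-cre knockout, beside 10.4% of all rows. It was Soat1, the enzyme that esterifies cholesterol, at 1.03.

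Of 13 transcription factor genes of Leydig cells 12 were measured. In the DHH-cre knockout 11 of 12 lay below the control, with a median of -0.41, beside 48.3% of all rows above it. In the NGN-cre knockouts 9 of 12 lay below it, with a median of -0.17, beside 47.4% above it. None of the 12 passed limma's test between the deletions or in the NGN-cre knockouts, beside 1.00% and 0.00% of all rows. At an unadjusted p under 0.05 were 0 and 1 of them, beside 18.3% and 7.86%. Nr5a1, the steroidogenic factor, had 14816 in the DHH-cre knockout and 17359, 13663 and 17320 in the NGN-cre knockouts, against 21022 in the control, the highest of the 5. In the mouse Nr5a1 is also expressed in Sertoli cells.

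Over all rows, limma called 1.00% between the deletions and 0.00% in the NGN-cre knockouts against the control. An unadjusted p under 0.05 was found for 18.3% and 7.86%. The size rule counted 10.4% of all rows in the DHH-cre knockout and 1.88% in the NGN-cre knockouts. Among the 13 genes of LH and cyclic AMP signalling 0 passed either limma test. At an unadjusted p under 0.05 was 1 between the deletions and 0 in the NGN-cre knockouts against the control. The size rule counted 1 gene in the DHH-cre knockout, the phosphodiesterase gene Pde4b at -1.37. Among 13 paracrine genes, of which Dhh and Amh are Sertoli cell products and on that list too, 0 passed either limma test or the size rule, with 0 at an unadjusted p under 0.05. Hhip, a target of hedgehog signalling, had 2224 in the DHH-cre knockout and 2692, 2737 and 3900 in the NGN-cre knockouts, against 4431 in the control. Gli1, another hedgehog target, differed by -0.62 and Ptch1, the hedgehog receptor, by -0.10 in the DHH-cre knockout.

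Of 11 further markers of fetal or adult Leydig cells 0 passed either limma test, with 4 at an unadjusted p under 0.05 between the deletions, beside 18.3% of all rows, and 2 in the NGN-cre knockouts against the control, beside 7.86%. The size rule counted 2 in the DHH-cre knockout, beside 10.4% of all rows, and 1 in the NGN-cre knockouts, beside 1.88%. Ces1d, a carboxylesterase gene, had 407 in the DHH-cre knockout and 273, 347 and 449 in the NGN-cre knockouts, against 125 in the control. Its log2 difference from the control was 1.70 in the DHH-cre knockout and 1.48 in the NGN-cre knockouts (limma for the NGN-cre knockouts, Benjamini-Hochberg adjusted p = 0.328). The stem cell filament gene Nes was 1.03 below the control in the DHH-cre knockout on the log2 scale. Thbs2, a marker of fetal Leydig cells in the mouse, had 5140 in the DHH-cre knockout and 8217, 8161 and 8142 in the NGN-cre knockouts, against 6549 in the control, and did not pass between the deletions (log2 -0.67; limma, Benjamini-Hochberg adjusted p = 0.164).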

How the data were processed

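The intensity values were made and deposited by the authors, 1 per transcript and array, from single-colour Cy3 NimbleGen expression arrays, per the labels' protocols; they were processed with RMA, version not stated, per the submitters' processing notes. This step corrects background, equalises the arrays' distributions and summarises probes, so a shift of total RNA cannot be seen. Log2 of the values was taken with no further normalization or filter. Row identifiers were matched without versions to RefSeq symbols (assembly GRCm38.p6, used for names): 17780 of 25631 rows had 1 symbol and 7851 none. A gene with several rows was represented by its brightest; each member had 1 row.

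Differences were fitted over all rows (R 4.3.3, limma 3.58.1; moderated by eBayes, two-sided, without an intensity trend; threshold 0.05 after Benjamini-Hochberg adjustment), 1 mean per group. Only the 3 NGN-cre arrays give a spread (2 residual degrees of freedom), and lone arrays were assumed to vary like them. The script was tested on simulated data. The number of arrays limits precision.

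Members and lists were chosen with earlier results of these data known. All members were named. From the 14 other lists, genes were named that passed the test or the size rule, or were among the 2 largest differences. Gata1, Sox9, Wt1, Clu, Amh, Inhbb, Inha, Dhh, Sycp3, Stra8, Zbtb16, Cyp11b2, Akr1b7, Mrap, Mc2r, Nr5a1, Ptch1 and Thbs2 were named after their values were seen. The values of 1 listed gene are not reported here. Alternatives were repeated quantile normalization, median centring, an offset of 64, leaving out dim rows, averaging the rows of a gene, an intensity trend and leaving out each NGN-cre array.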

Additional observations from a re-analysis of the deposited data

Results flagged for a closer look

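For 2 of the 10 members the DHH-cre knockout array differed from the 3 NGN-cre knockout arrays past the threshold, beside 1.00% of all rows. For Hsd3b6 the DHH-cre minus NGN-cre log2 difference was 1.55 (limma, Benjamini-Hochberg adjusted p = 0.0452), and the DHH-cre value was above all 3 NGN-cre values. For Hsd17b3 it was -3.27 (limma, Benjamini-Hochberg adjusted p = 0.0209), and the DHH-cre value was below all 3. The DHH-cre side is 1 array, assumed to vary like the NGN-cre arrays, and has no control of its own, so a batch effect and an effect of the driver cannot be told apart. With an offset of 64 both calls were lost, at an adjusted p = 0.0648 for Hsd3b6 and an adjusted p = 0.059 for Hsd17b3.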

How the results depend on the processing

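Of the 2 members called between the deletions, 0 passed with an offset of 64, and 1 to 2 passed when an NGN-cre array was left out; Hsd3b6 was lost without NGN-cre replicate 1 or replicate 2. The size rule gave 2 members in the DHH-cre knockout and 0 in the NGN-cre knockouts in every setting run. Leaving out an NGN-cre array could not lower the DHH-cre count. It leaves both compared arrays as they are and cannot widen the NGN-cre span. The median difference of the members between the NGN-cre knockouts and the control ran from 0.01 to 0.14 without each NGN-cre array. Differences near 0 changed sign: without each NGN-cre array, Hsd17b3 in the NGN-cre knockouts against the control ran from -0.25 to 0.15, Srd5a1 from -0.09 to 0.02, and Akr1c14 between the deletions from -0.23 to 0.11. Over all settings the adjusted p of Hsd17b3 between the deletions ran from 0.000198 to 0.059 and that of Hsd3b6 from 0.0126 to 0.111 (limma, Benjamini-Hochberg). Counts over all rows between the deletions were 257, against 10 with the offset, 38 without replicate 1, 1321 without replicate 3 and 729 with an intensity trend. In the NGN-cre knockouts against the control they were 0, with 2015 at an unadjusted p under 0.05, against 66 with the trend and 238 without replicate 3. The causes were not tested. No paired analysis was possible because the labels give no replicate numbers and the control and DHH-cre groups hold 1 array each.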
